A study of Mus musculus with 12 samples.

Results

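Integrins are receptors made of 1 α and 1 β chain that hold cells to matrix and to other cells, and 10 genes for such chains were followed here in CD11b dendritic cells (DCs) of the mouse. The genes are Itgam, Itgax, Itgae, Itgav, Itgb8, Itgb5, Itgb7, Itga4, Itga5 and Itgb1, chosen by their symbols. They are 10 of the 24391 symbols in the count table, and all 10 passed the low-count filter that left 13221 genes for testing. RNA was sequenced from wild-type C57BL/6J mice aged 8 to 12 weeks, and the series title places the cells in established pulmonary fibrosis. All mice had a replication-deficient adenovirus delivered into the trachea. The vector was either AdCL, which is empty, or AdTGFb1, which carries porcine TGF-β1 in its active form. Experiment 1 holds AdCL DC 7, 8 and 9 and AdTGFb1 DC 14, 52 and 54. Experiment 3 holds AdCL DC 943, 944 and 949 and AdTGFb1 DC 954, 955 and 956. Every group therefore carried adenovirus, and no group without a vector was analysed here. The sources used here give neither the organ, gate and time of the sort nor whether each library is 1 animal, so the p-values measure the spread between these libraries.

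A dendritic cell uses its integrins to stay in tissue, to crawl on matrix and to hold T cells. Chains of the β2 family (Itgam for CD11b, Itgax for CD11c) bind complement fragments and ICAM1, the α4, α5 and β1 chains bind VCAM1 and fibronectin, and β7 pairs with α4 or with αE (Itgae, the CD103 antigen), which holds E-cadherin. Chains paired with αv, among them β5 and β8, bind the latency peptide of TGF-β or matrix proteins, and αvβ8 is known as the integrin by which dendritic cells release active TGF-β from its stored form.

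Totals lay between 10099912 and 15594546 counts. Levels are in CPM (read counts relative to TMM-scaled library sizes). Effects of the vector are log2 fold changes of AdTGFb1 against AdCL ± SE from edgeR's quasi-likelihood test, and a gene was called at a Benjamini-Hochberg adjusted p under 0.05 over all genes tested. The experiments differed beyond the vector. Xist, the RNA that coats the silenced X chromosome of females, reached no more than 2.29 CPM in all 3 AdCL libraries of experiment 1 and in AdTGFb1 DC 14, where the Y-linked Ddx3y was at 120.5 CPM or more. In the other 8 libraries Xist was at 1126 CPM or more and Ddx3y had no counts. In experiment 1 this difference runs partly with the vector, and in experiment 3 all 6 libraries are alike in it. The 7 endothelial markers summed to between 109 and 428 CPM in AdCL of experiment 1, against 15.3 to 102 CPM in the other 9 libraries.

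The AdTGFb1 libraries held more Itgb5 and less Itgb7, Itga5, Itga4 and Itgb8 than the AdCL libraries over both experiments, so 1 of the 10 subunits rose and 4 fell. The background is that 17.2% of all genes tested were called. With a term added for 27 markers of endothelial, epithelial and mesenchymal cells and platelets, 3 of the 10 were called over both experiments (Itgb5, Itgb7 and Itga5). The median effect of the 10 subunits was -0.21, against -0.00196 over all genes. In experiment 1 alone 2 of the 10 rose (Itgb5 and Itgax) and 5 fell (Itgb8, Itgb7, Itga5, Itga4 and Itgav), where 24.7% of all genes were called. With the same marker term none of the 10 was called in experiment 1, where the score of those markers lay between 0.882 and 2.15 in the AdCL and between -1.40 and -0.908 in the AdTGFb1 libraries, so that marker score and vector cannot be told apart there. The effects with that term were 1.50 for Itgb5 (edgeR adjusted p = 0.241), -1.28 for Itgb7 (0.278) and -0.71 for Itga5 (0.458). Within experiment 3, Itgb5 rose and Itgb7 and Itga5 fell, where 6.43% were called. The test of the difference between the 2 effects, called the interaction here, passed for Itgav only with edgeR, against 6.02% of all genes. Itgb8, Itgb7 and Itga5 had all 6 AdTGFb1 libraries below all 6 AdCL libraries. Such a complete separation, in either direction, was found for 6.32% of all genes.

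**Figure D1:**
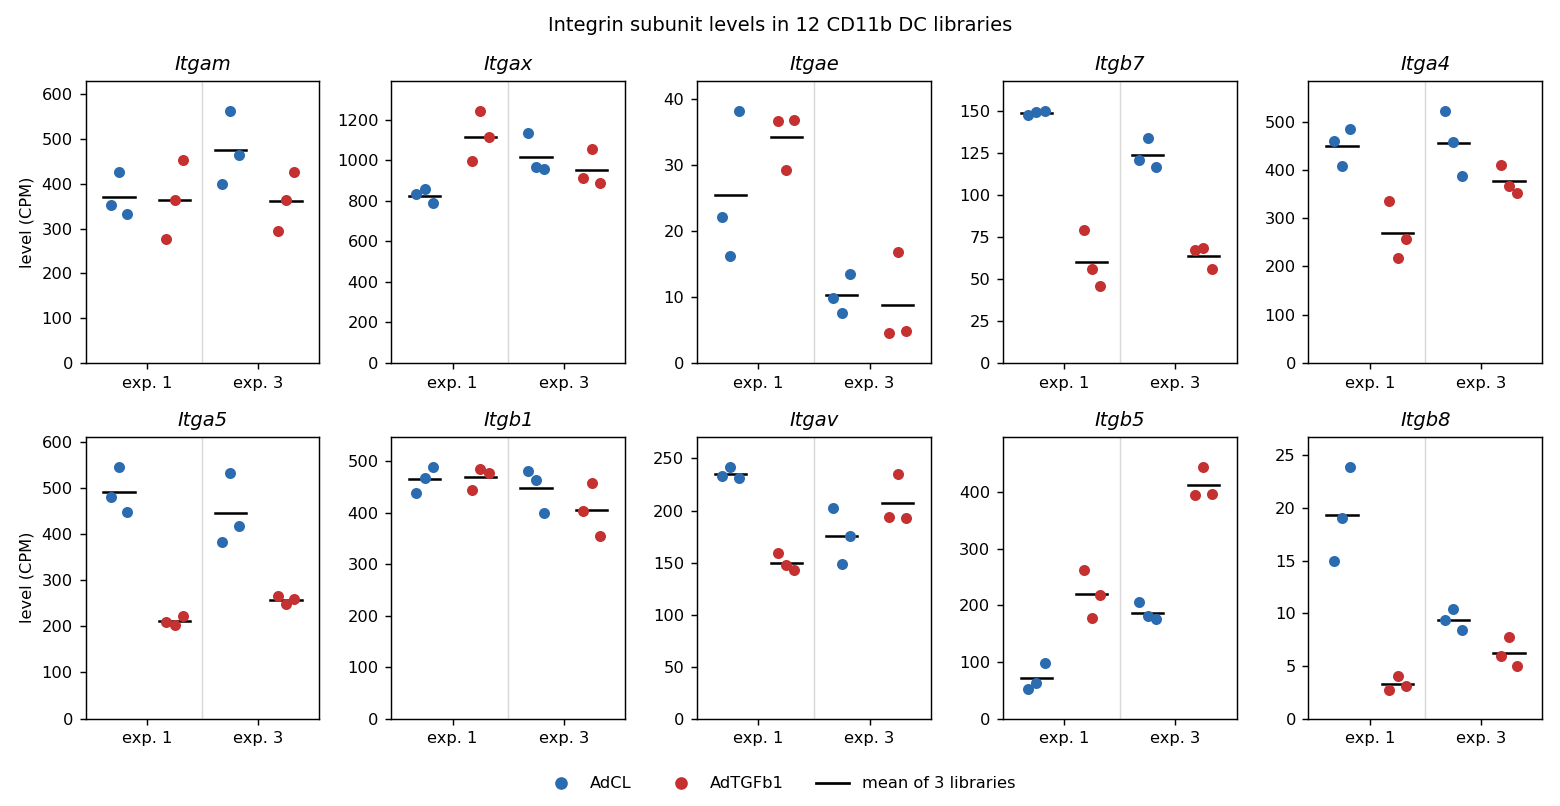
Levels of the 10 integrin subunits in CPM (vertical axes from 0) in each of the 12 libraries, by experiment and vector, with a line at the mean of 3 libraries. Itgb5 stands higher and Itgb7 and Itga5 lower with AdTGFb1 in each experiment, while Itgav is lower in experiment 1 only and Itgae is low in both vectors of experiment 3.

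**Figure D2:**
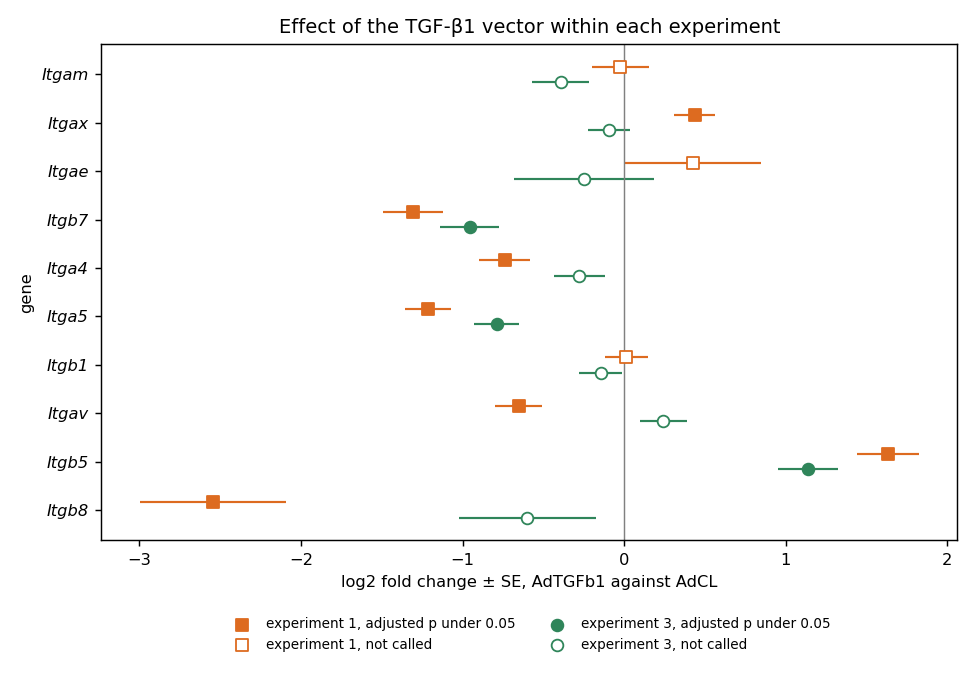
Log2 fold change ± SE of AdTGFb1 against AdCL within each experiment for the 10 subunits (horizontal axis), with filled symbols at an adjusted p under 0.05. Itgb5, Itgb7 and Itga5 are filled in each experiment, and Itgb8 runs from -2.54 in experiment 1 to -0.60 in experiment 3.

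Itgb5, Itgb7 and Itga5 were the 3 subunits called in each experiment. The bases before their starts are shown because they hold the core promoters of the genes that changed in each experiment. They come from RefSeq in the GRCm38.p6 build, which is another build than that of the counts (mm9), and 9 of the 10 subunits matched an entry of its promoter table, Itgae not. Each is printed 5′ to 3′ on the strand of the gene up to the base before the start, at chr16:33829415-33829664 (plus strand), chr15:102231945-102232185 (minus strand) and chr15:103366792-103367041 (minus strand). Annotated exon bases are left out. Capitals mark every match, on either strand, to the 4 motifs searched.
Itgb5: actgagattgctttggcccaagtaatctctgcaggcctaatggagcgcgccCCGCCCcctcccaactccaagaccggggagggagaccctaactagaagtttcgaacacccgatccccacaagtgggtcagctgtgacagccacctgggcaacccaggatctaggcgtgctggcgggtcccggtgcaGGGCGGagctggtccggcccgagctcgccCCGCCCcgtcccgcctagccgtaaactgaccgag
Itgb7: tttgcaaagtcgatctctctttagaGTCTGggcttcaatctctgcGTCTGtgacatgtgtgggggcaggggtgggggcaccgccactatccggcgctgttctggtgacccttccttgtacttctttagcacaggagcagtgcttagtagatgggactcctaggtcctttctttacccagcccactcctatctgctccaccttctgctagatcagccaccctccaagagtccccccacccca
Itga5: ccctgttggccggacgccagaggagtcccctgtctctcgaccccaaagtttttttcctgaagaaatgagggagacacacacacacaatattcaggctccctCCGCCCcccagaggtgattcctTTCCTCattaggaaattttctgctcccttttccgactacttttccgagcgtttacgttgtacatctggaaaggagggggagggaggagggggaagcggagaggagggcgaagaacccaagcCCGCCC
The motifs were the SMAD core CAGAC, the ETS core GAGGAA, the AP-1 site TGANTCA and the GC box GGGCGG, and no matches overlap in these 3 windows. Itgb5 holds 3 GC boxes, Itgb7 holds 2 SMAD cores, and Itga5 holds 2 GC boxes and 1 ETS core. Of 32851 windows of the same length before the starts of all genes, 42.2% hold the SMAD core, 23.3% the ETS core, 6.75% the AP-1 site and 32.7% the GC box. These are matches of letters and not binding sites.

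Itgam encodes CD11b, the chain that names these cells, so finding its RNA in them is no test of their identity. Itgam stood at 352, 426 and 333 CPM in AdCL and 276, 364 and 452 CPM in AdTGFb1 of experiment 1. The experiment 3 libraries held 399, 561 and 463 CPM in AdCL and 295, 363 and 427 CPM in AdTGFb1. The groups overlap in each experiment, and no library was low enough to lack CD11b RNA. The effect of the vector on Itgam was -0.21 ± 0.14 over both experiments (edgeR adjusted p = 0.356, 2 SE from -0.49 to 0.07). A same-strand gene model, which is not in the count table, shares exons with Itgam in the M21 annotation. The origin of reads in the shared exons is therefore uncertain. Of the 7 CD11b DC markers, Itgam among them, 1 rose and 3 fell over both experiments, where 17.2% of all genes were called. Sirpa rose (0.58 ± 0.10, edgeR adjusted p = 0.000659). Irf4, a factor these cells depend on (-1.36 ± 0.16, adjusted p = 1.36e-05), the lectin Cd209a (-1.97 ± 0.26, adjusted p = 4.42e-05) and Cd24a (-0.91 ± 0.26, adjusted p = 0.0205) fell. Mgl2 and Clec10a were not called. Cd24a was at -0.19 ± 0.25 in experiment 1 (adjusted p = 0.633) and -1.65 ± 0.26 in experiment 3 (adjusted p = 0.000272). Its interaction of -1.47 ± 0.35 passed (adjusted p = 0.0143).

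Itgax encodes CD11c, the chain by which dendritic cells are most often recognised. In experiment 1 it was at 833, 856 and 788 CPM in AdCL and at 995, 1241 and 1113 CPM in AdTGFb1. All 3 AdTGFb1 libraries lay above all 3 AdCL libraries, and Itgax rose by 0.44 ± 0.13 (edgeR adjusted p = 0.0155). The call is lost with a term for Xist (0.29, edgeR adjusted p = 0.234) and without AdTGFb1 DC 52 (0.36, edgeR adjusted p = 0.0886). In experiment 3 Itgax stood at 1132, 964 and 955 CPM in AdCL and at 914, 1057 and 889 CPM in AdTGFb1, which overlap, with an effect of -0.09 ± 0.13 (edgeR adjusted p = 0.782). The interaction was -0.53 ± 0.18 and did not pass edgeR's test (adjusted p = 0.0851), though it did with DESeq2 (adjusted p = 0.0387). Itgb2, the β chain that pairs with both CD11b and CD11c, moved like Itgax: 0.49 in experiment 1 (edgeR adjusted p = 0.0153), -0.30 in experiment 3 (adjusted p = 0.268) and -0.78 ± 0.20 for the interaction (adjusted p = 0.0218).

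Itgb7 encodes β7, the chain shared by the gut-homing integrin α4β7 and by αEβ7. It was at 148, 149 and 149.7 CPM in AdCL and at 79.0, 56.0 and 45.7 CPM in AdTGFb1 of experiment 1. Those of experiment 3 held 121, 134 and 117 CPM in AdCL and 67.1, 68.4 and 55.9 CPM in AdTGFb1. The highest AdTGFb1 library lay well below the lowest AdCL library. Itgb7 fell by 1.13 ± 0.14 on the log2 scale over both experiments, a level 2.19-fold lower (edgeR adjusted p = 1.98e-05, lower in 6 of 6 libraries). The effect was -1.31 ± 0.18 in experiment 1 (adjusted p = 1.63e-05) and -0.96 ± 0.18 in experiment 3 (adjusted p = 0.00190). The interaction of 0.35 ± 0.26 did not pass (adjusted p = 0.472).

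Itga4 encodes α4, which pairs with β1 to bind VCAM1 or with β7. In experiment 1 it stood at 459, 408 and 484 CPM in AdCL and at 335, 217 and 257 CPM in AdTGFb1, with no overlap. In experiment 3 it stood at 521, 457 and 388 CPM in AdCL and at 409.7, 366 and 353 CPM in AdTGFb1, where 1 AdTGFb1 library lay inside the AdCL range. Itga4 fell by 0.51 ± 0.13 over both experiments (edgeR adjusted p = 0.0102). The effect passed in experiment 1 (-0.74 ± 0.16, edgeR adjusted p = 0.00123) and not in experiment 3 (-0.28 ± 0.16, adjusted p = 0.366), and the difference between them was not called (0.46 ± 0.22, adjusted p = 0.235). The call over both experiments is lost with the term for those markers of other cells (-0.42, edgeR adjusted p = 0.0856). The call in experiment 1 is lost with a term for Xist (-0.47, edgeR adjusted p = 0.088). Itga4 shares exon bases with Cerkl on the opposite strand, and the strand setting of the counting is not given, so reads in the 1124 shared bases cannot be assigned to either gene.

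Itgae encodes αE, the CD103 chain that marks the other main subset of conventional DCs in lung. It was low: 22.1, 16.2 and 38.1 CPM in AdCL and 36.6, 29.2 and 36.8 CPM in AdTGFb1 of experiment 1. In experiment 3 it was at 9.91, 7.57 and 13.5 CPM in AdCL and at 4.61, 16.8 and 4.83 CPM in AdTGFb1. The vectors overlap in each experiment, and 5 of the 6 libraries of experiment 3 lay below every library of experiment 1. The vector's effect was 0.09 ± 0.32 (edgeR adjusted p = 0.883, 2 SE from -0.55 to 0.74), and the effect on Itga4 lies inside that interval. Itgae fell by 1.64 ± 0.33 from experiment 1 to experiment 3 (edgeR adjusted p = 0.00582), where 6.43% of all genes were called. With a term for Xist that was -1.66 (adjusted p = 0.0676). The summed level of the 7 CD103 DC markers, Itgae among them, did not follow Itgae. It lay between 197 and 250.5 CPM in AdCL and 269 and 377 CPM in AdTGFb1 of experiment 1, and between 229 and 274 CPM and 453 and 576 CPM in experiment 3. Irf8 was the largest part of that sum, with means of 101 and 222 CPM in AdCL and AdTGFb1 of experiment 1 and 138 and 312 CPM in experiment 3. Over both experiments 3 of these 7 markers rose with the vector (Irf8, Clec9a and Tlr3) and none fell, where 17.2% of all genes were called. Within experiment 1 Cadm1 fell by 1.44 ± 0.40 (edgeR adjusted p = 0.0101), while Irf8, Batf3 and Tlr3 rose.

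Itga5 encodes α5, whose only partner is β1, and α5β1 is the main receptor for fibronectin. It was at 479.6, 546 and 449 CPM in AdCL and at 209.7, 203 and 223 CPM in AdTGFb1 of experiment 1. The AdCL libraries of experiment 3 held 384, 533 and 417 CPM and the AdTGFb1 libraries 265, 247 and 259.8 CPM. The AdTGFb1 libraries lay close together and below all AdCL libraries. Itga5 fell by 1.00 ± 0.12 over both experiments, to a level 2.00-fold lower (edgeR adjusted p = 1.13e-05, lower in 6 of 6 libraries). The effect was -1.21 ± 0.14 in experiment 1 (adjusted p = 1.78e-06) and -0.79 ± 0.14 in experiment 3 (adjusted p = 0.000956), and the interaction was 0.42 ± 0.20 (adjusted p = 0.225).

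Itgb1 encodes β1, the partner of α4, α5 and many other α chains. It was at 439, 467 and 489 CPM in AdCL and at 445, 486 and 477 CPM in AdTGFb1 of experiment 1. Experiment 3 gave 480.4, 464 and 399 CPM in AdCL and 403, 458 and 354 CPM in AdTGFb1. The groups overlap throughout. The vector's effect of -0.07 ± 0.10 was not called (edgeR adjusted p = 0.712), and 2 SE ran from -0.27 to 0.14, which does not reach the effect on Itga5. Per kilobase of exon, the ratio of Itga5 to Itgb1 was 0.876 ± 0.106 (SD, n = 3) in AdCL and 0.374 ± 0.0242 in AdTGFb1 of experiment 1, and 0.825 ± 0.149 and 0.532 ± 0.0809 in experiment 3. The ratio was thus lower with AdTGFb1 in each experiment by more than the spread of its libraries.

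Itgb5 encodes β5, which pairs with αv to bind vitronectin and can pull on the latent TGF-β complex. It was at 52.1, 63.3 and 97.5 CPM in AdCL and at 263, 178 and 219 CPM in AdTGFb1 of experiment 1. Experiment 3 gave 205, 181 and 175 CPM in AdCL and 395, 445 and 397 CPM in AdTGFb1. The AdTGFb1 libraries lay above AdCL within each experiment, but 2 of the 3 AdCL libraries of experiment 3 lay in the range of AdTGFb1 of experiment 1 and the other just below it. Itgb5 rose by 1.38 ± 0.15 over both experiments, 2.61-fold (edgeR adjusted p = 7.48e-06). It rose 3.10-fold in experiment 1 (1.63 ± 0.19, adjusted p = 1.91e-06) and 2.20-fold in experiment 3 (1.14 ± 0.19, adjusted p = 0.000444), and the interaction was -0.49 ± 0.26 (adjusted p = 0.300). Without AdCL DC 9, the AdCL library of experiment 1 with the most Itgb5, the interaction was -0.83 and passed (edgeR adjusted p = 0.0436). Itgb5 was also higher in experiment 3 than in experiment 1, by 1.15 ± 0.15 or 2.22-fold (edgeR adjusted p = 0.000316). It was the 1 subunit of the 10 called both for the vector and for the experiment.

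Itgb8 encodes β8, which pairs only with αv. It was the lowest of the 10 subunits per length, from 36 to 257 counts a library. In experiment 1 it was at 15, 19.0 and 23.9 CPM in AdCL and at 2.73, 4.08 and 3.09 CPM in AdTGFb1. In experiment 3 it was at 9.33, 10.4 and 8.44 CPM in AdCL and at 5.93, 7.75 and 4.95 CPM in AdTGFb1. The vectors did not overlap, and the gap was wide in experiment 1 and narrow in experiment 3. Itgb8 fell by 1.56 ± 0.39 over both experiments (edgeR adjusted p = 0.00857, lower in 6 of 6 libraries). The effect was -2.54 ± 0.45 in experiment 1 (adjusted p = 0.000221) and -0.60 ± 0.43 in experiment 3 (adjusted p = 0.512), and the interaction of 1.95 ± 0.61 did not pass (adjusted p = 0.0581). DESeq2 called that interaction (1.97, adjusted p = 0.0105). The call over both experiments is lost with a term for Xist (-1.30, edgeR adjusted p = 0.0586) and with the marker term (-0.86, edgeR adjusted p = 0.181).

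The AdCL libraries of experiment 1, in which Itgb8 was highest, were also the ones with the most RNA of endothelial and mesenchymal markers. The 7 mesenchymal markers summed to between 123 and 328 CPM there and to between 29.8 and 92.2 CPM in the other 9 libraries. In experiment 3 the endothelial markers were at 18.3 to 47.1 CPM in AdCL and at 51.2 to 102 CPM in AdTGFb1, the opposite order from Itgb8. The part of these cells in the level of Itgb8 was not tested.

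Itgav encodes αv, the partner of both β5 and β8. It was at 233, 242 and 232 CPM in AdCL and at 159, 148 and 143 CPM in AdTGFb1 of experiment 1, with all 3 AdTGFb1 libraries lower. In experiment 3 it was at 202, 149 and 176 CPM in AdCL and at 194, 235 and 193 CPM in AdTGFb1, which overlap. Itgav fell by 0.65 ± 0.15 in experiment 1 (edgeR adjusted p = 0.00204). The effect was 0.24 ± 0.15 in experiment 3 (adjusted p = 0.409), and the interaction of 0.89 ± 0.21 passed (adjusted p = 0.0103). Over both experiments the effect was -0.20 ± 0.15 (adjusted p = 0.399). With a term for Xist the interaction was 0.84 (edgeR adjusted p = 0.0774). A gene model on the opposite strand, which is not in the count table, overlaps Itgav.

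Dividing by the exon length of each gene allows the subunits to be set beside each other, as CPM per kilobase (mean ± SD of 3 libraries). In every group Itgax stood first and Itgae and Itgb8 stood last, with SDs of these last 2 that overlap in AdTGFb1 of experiment 3. In AdCL of experiment 1 the order was Itgax (172 ± 7.25), Itgb1 (114 ± 6.25), Itga5 (99.6 ± 10.0), Itgam (73.7 ± 9.78), Itgb7 (53.8 ± 0.432), Itga4 (32.2 ± 2.75), Itgav (21.9 ± 0.532), Itgb5 (20.0 ± 6.66), Itgae (5.56 ± 2.47) and Itgb8 (1.74 ± 0.403). The SDs of Itgb1 and Itga5 overlap there, as do those of Itgav and Itgb5.

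Itgb5 took a different place in each group. In AdTGFb1 of experiment 1 it took the fourth place (61.9 ± 11.9), with its SD overlapping that of Itgam above it (72.5 ± 17.6) and not that of Itga5 below it (43.0 ± 2.02). In AdCL of experiment 3 it took the fifth place (52.7 ± 4.52), after Itgax (212 ± 20.7), Itgb1, Itgam and Itga5 and before Itgb7 (44.6 ± 3.17). In AdTGFb1 of experiment 3 it took the second place (116 ± 7.97), after Itgax (198 ± 18.8), with its SD overlapping that of Itgb1 (99.3 ± 12.8). Itgb7, the fifth of the 10 in AdCL of experiment 1, was at 21.7 ± 6.15 in AdTGFb1 of experiment 1 and at 23.0 ± 2.49 in AdTGFb1 of experiment 3, where its SD overlaps that of Itga4 (19.3 ± 4.28 and 26.9 ± 2.14).

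Among the β chains of the count table, Itgb2 RNA made up the largest share per kilobase in every group, 57.0% and 64.0% in AdCL and AdTGFb1 of experiment 1 and 58.7% and 50.1% in experiment 3. The share of Itgb5 was 4.41% ± 1.42 (SD, n = 3) in AdCL and 11.1% ± 2.77 in AdTGFb1 of experiment 1, and 10.4% ± 0.346 and 24.2% ± 2.54 in experiment 3. The share of Itgb7 was 11.9% ± 0.428 and 3.96% ± 1.46 in experiment 1, and 8.83% ± 0.763 and 4.79% ± 0.171 in experiment 3. In AdCL of experiment 1 there was thus more Itgb7 than Itgb5 RNA per kilobase, and in AdTGFb1 of experiment 3 the mean share of Itgb5 was above that of Itgb1 (20.6% ± 1.84), with overlapping SDs. The share of Itgb8 stayed under 1% in all 4 groups. The ratio of Itgb5 to Itgb8 was 11.3 ± 1.24 in AdCL and 219 ± 81.9 in AdTGFb1 of experiment 1, and 62.4 ± 7.49 and 212 ± 35.5 in experiment 3. RNA shares are not shares of the paired receptors on the cell surface, which were not measured.

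**Figure D3:**
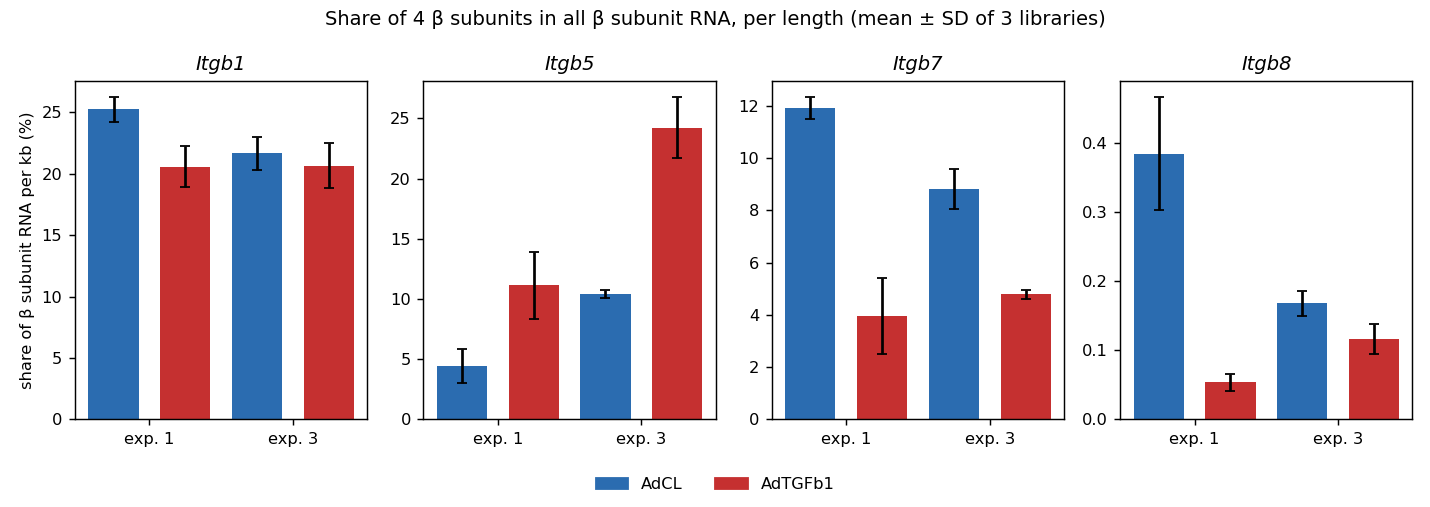
Share of 4 β subunits in the RNA of all β subunits in the count table, per kilobase of exon (vertical axes in percent, from 0), as mean ± SD of 3 libraries by experiment and vector. The share of Itgb5 is higher with AdTGFb1 in each experiment (4.41% to 11.1% and 10.4% to 24.2%) and that of Itgb7 lower.

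The other integrin genes of the table were also counted. Of 17 on a list that leaves out the 10 subunits, 14 passed the low-count filter. Over both experiments 1 of these rose and 2 fell, where 17.2% of all genes were called. Itga6, a laminin receptor chain, rose by 1.21 ± 0.22 (edgeR adjusted p = 0.000848). Itga3, another laminin receptor chain, fell by 1.98 ± 0.43 (adjusted p = 0.00369), and Itgb3, the β3 chain of the vitronectin receptor and a further partner of αv, fell by 1.61 ± 0.32 (adjusted p = 0.00156). In experiment 3, where 6.43% of all genes were called, Itga6 (1.74 ± 0.25, adjusted p = 0.000101) and Itgb3 (-1.87 ± 0.46, adjusted p = 0.0129) were called. Itga3 was not called there (-1.35 ± 0.54, adjusted p = 0.166). Itgb3 was low, at 17.0 ± 11.6 CPM in AdCL and 6.17 ± 5.29 CPM in AdTGFb1 (SD, n = 6). Of the αv partners β3, β5 and β8, Itgb5 was thus called higher and Itgb3 and Itgb8 lower over both experiments. Itgb1 (-0.07 ± 0.10, adjusted p = 0.712) and Itgb6 (0.45 ± 1.45, adjusted p = 0.877) were not called. The interaction passed for 5 of the 14, where 6.02% of all genes were called. Itga9 was among them (1.61 ± 0.31, adjusted p = 0.00312), falling in experiment 1 (-0.76 ± 0.22, adjusted p = 0.0152) and rising in experiment 3 (0.85 ± 0.22, adjusted p = 0.0198). So was Itga2b, the platelet chain (4.34 ± 0.85, adjusted p = 0.00323), at -4.16 ± 0.64 in experiment 1 (adjusted p = 4.99e-05) and 0.17 ± 0.58 in experiment 3 (adjusted p = 0.931). Itga2b averaged 24.2 CPM in AdCL of experiment 1 and 1.35 to 2.41 CPM in the other groups. Other platelet markers did not all follow it. Pf4 averaged 18.2 and 17.7 CPM in AdCL and AdTGFb1 of experiment 1, and 37.3 and 29.4 CPM in experiment 3. Ppbp averaged 3.46 and 3.49 CPM in experiment 1. Gp1ba, Gp9 and Gp6 were highest in AdCL of experiment 1, at means of 3.27, 4.13 and 1.84 CPM. The part of platelets in the level of Itga2b was not tested.

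Latent TGF-β, the cargo that αv integrins act on, is made and held by a further set of genes. Of 10 of them 3 rose and 4 fell over both experiments, where 17.2% of all genes were called. Lrrc32 encodes GARP, which docks latent TGF-β on the cell surface. It was between 212 and 436 CPM in AdCL and between 47.3 and 84.0 CPM in AdTGFb1 and fell by 2.01 ± 0.19 (edgeR adjusted p = 1.65e-06, lower in 6 of 6 libraries). Nrros, which encodes the docking protein of myeloid cells, fell by 0.68 ± 0.13 (adjusted p = 0.00174). Mmp14, a membrane protease, rose by 1.39 ± 0.23 (adjusted p = 0.000366), and Tgfb3 rose by 1.30 ± 0.28 (adjusted p = 0.00314). The effect on Mmp14 was 2.14 ± 0.19 in experiment 1 and 0.66 ± 0.19 in experiment 3, and its interaction of -1.48 ± 0.27 passed (adjusted p = 0.00175). Within experiment 3, where 6.43% of all genes were called, 1 of the 10 was called higher and 2 lower. Both Lrrc32 and Nrros fell there (-2.11 ± 0.25, adjusted p = 1.69e-05, and -0.86 ± 0.17, adjusted p = 0.00304), beside an effect on Itgb8 that was not called.

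**Figure D4:**
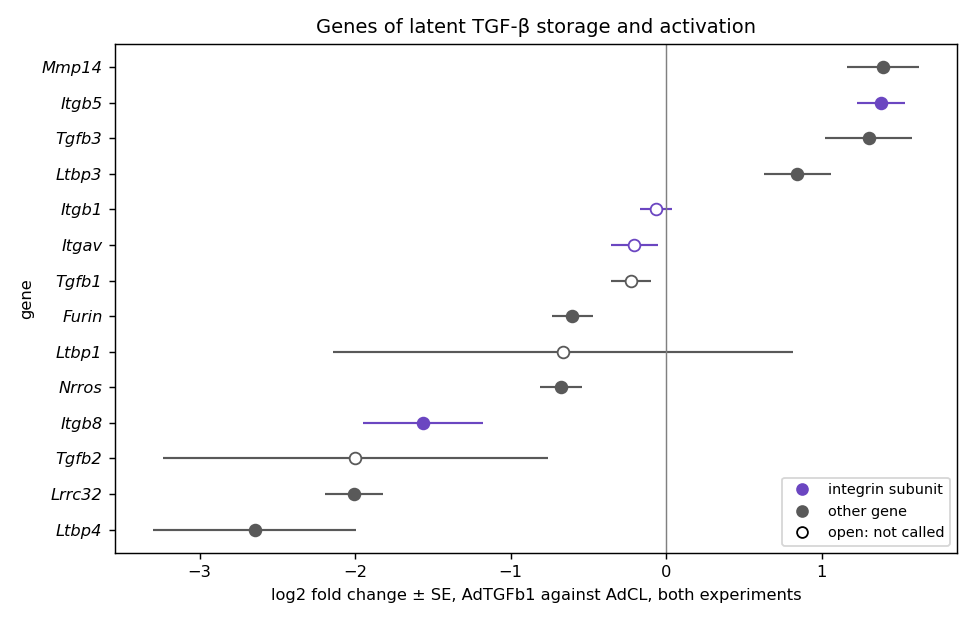
Log2 fold change ± SE of AdTGFb1 against AdCL over both experiments for 4 integrin subunits and 10 genes of latent TGF-β (horizontal axis), with filled symbols at an adjusted p under 0.05. Itgb5 lies beside Mmp14 at the top (1.38 and 1.39), and Itgb8 lies near Lrrc32 (-1.56 and -2.01).

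Of 16 integrin ligands, 10 were tested and 1 rose and 1 fell over both experiments, where 17.2% of all genes were called. Icam1, bound by the β2 integrins, fell by 0.73 ± 0.17 (edgeR adjusted p = 0.00571), and Spp1, the osteopontin gene, rose by 1.22 ± 0.34 (adjusted p = 0.0179). In experiment 3 neither was called (-0.26 ± 0.17, adjusted p = 0.45, for Icam1 and 0.15 ± 0.26, adjusted p = 0.847, for Spp1), and both interactions passed (0.93 ± 0.24, adjusted p = 0.0218, and -2.14 ± 0.37, adjusted p = 0.00135). Fn1, the fibronectin bound by α5β1, was called in each experiment but in opposite directions: 3.76 ± 0.35 in experiment 1 (adjusted p = 1.26e-07) and -1.32 ± 0.32 in experiment 3 (adjusted p = 0.0132), with an interaction of -5.08 ± 0.47 (adjusted p = 3.85e-06). Itga5, its receptor chain, fell in each. Cdh1, the E-cadherin bound by αEβ7, was not called over both experiments (0.63 ± 0.31, adjusted p = 0.181). It rose by 1.63 ± 0.24 in experiment 1 (adjusted p = 2.2e-05), was at -0.40 ± 0.23 in experiment 3 (adjusted p = 0.392), and its interaction of -2.04 ± 0.33 passed (adjusted p = 0.000672). The 6 alveolar macrophage markers summed to between 1032 and 2144 CPM in AdTGFb1 of experiment 1, where Fn1, Spp1 and Cdh1 were highest. Their sum was at most 515 CPM in the other 9 libraries. Most of the sum in AdTGFb1 of experiment 1 is Chil3 (mean of 1560 CPM), while each other marker averaged at most 37.3 CPM. Within experiment 1 Chil3 (4.75 ± 0.55, edgeR adjusted p = 1.56e-06) and Ear2 (1.77 ± 0.64, adjusted p = 0.0449) rose. Siglecf, Marco, Fabp4 and Car4 were not called there. The part of these markers in the levels of Fn1, Spp1 and Cdh1 was not tested.

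Of 27 genes that switch integrins on or tie them to actin, 26 were tested. Over both experiments 2 rose and 5 fell, where 17.2% of all genes were called. In experiment 3, where 6.43% were called, 1 of the 26 fell and none rose. Syk, a kinase that acts downstream of β2 integrins, fell by 0.59 ± 0.10 (edgeR adjusted p = 0.000628, lower in 6 of 6 libraries). Rap1b, a small GTPase that switches integrins on, fell by 0.55 ± 0.12 (adjusted p = 0.00318), and the adaptor Pxn (paxillin) fell by 0.36 ± 0.11 (adjusted p = 0.0258). In experiment 3 Syk was called (-0.45 ± 0.13, adjusted p = 0.0381), but Rap1b (-0.36 ± 0.14, adjusted p = 0.168) and Pxn (-0.20 ± 0.14, adjusted p = 0.489) were not. The genes for tetraspanins and CD47, which lie beside integrins in the membrane, numbered 8. Over both experiments, where 17.2% of all genes were called, 1 of them rose (Cd63, 0.47 ± 0.14, adjusted p = 0.0229) and 2 fell (Cd53, -0.57 ± 0.11, adjusted p = 0.00141, and Cd82, -1.10 ± 0.23, adjusted p = 0.00254). In experiment 3 Cd53 was called (-0.57 ± 0.15, adjusted p = 0.0217), but Cd63 (0.22 ± 0.17, adjusted p = 0.561) and Cd82 (-0.42 ± 0.21, adjusted p = 0.284) were not. The interaction of Cd82 passed (1.37 ± 0.29, adjusted p = 0.00662).

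Markers of monocytes and macrophages moved with Itgb5, while of the 6 alveolar macrophage markers none was called over both experiments. Of the 6 neutrophil markers tested 1 rose and 1 fell. Of 9 monocyte and macrophage markers, 8 rose with the vector, where 17.2% of all genes were called. Of these 9 markers, 7 were higher in experiment 3 than in experiment 1, where 6.43% were called. Their summed level was between 1407 and 1574 CPM in AdCL and 3040 and 3556 CPM in AdTGFb1 of experiment 1, and between 2646 and 3269 CPM and 4806 and 5496 CPM in experiment 3. That is the order of the 4 groups in Itgb5, with AdCL of experiment 3 and AdTGFb1 of experiment 1 overlapping in both. Not every marker kept that order. Adgre1 and Cx3cr1 were higher in AdCL of experiment 3 (means of 250 and 170 CPM) than in AdTGFb1 of experiment 1 (181 and 132 CPM). Ccr2 was highest in AdTGFb1 of experiment 1 (422 CPM). Of 6 markers of conventional DCs (Flt3, Zbtb46, Itgax, H2-Ab1, Cd74 and Ccr7), all but Itgax fell with the vector, as Itgb7, Itga5 and Itga4 did. Their summed level was between 27382 and 30233 CPM in AdCL and 17240 and 21669 CPM in AdTGFb1 of experiment 1. It was between 25729 and 34859 CPM and between 22275 and 28338 CPM in experiment 3, where the groups overlap. Most of that sum is Cd74 and H2-Ab1, while Flt3 (-1.09 ± 0.20, edgeR adjusted p = 0.00148), Zbtb46 (-1.58 ± 0.23, adjusted p = 0.000136) and Ccr7 (-1.58 ± 0.18, adjusted p = 1.19e-05) fell in experiment 3 with no overlap. In such bulk libraries fewer cells of a type and less RNA per cell cannot be told apart. The part of these markers in the levels of the integrins was not tested.

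Within each subunit, the genes whose log2 CPM ran most like it over the 12 libraries were looked up among 7839 genes averaging 10 CPM or more, as a description with no test. The same 4 groups of vector and experiment underlie every such correlation. The nearest genes to Itgb5 were Ptpn6, Apoe and Csf1r (Pearson r = 0.98, 0.978 and 0.977), the last of which is the receptor of macrophage growth factor and on the list of monocyte and macrophage markers. Nearest to Itgb7 were Usp16, Stat5a and P2ry10 (each 0.978), and nearest to Itga5 were Slc2a3, Wnt11 and Zeb1 (0.978, 0.976 and 0.975). Nearest to Itgb8 were Tmed5, Ltbp4 and Zhx2 (0.976, 0.972 and 0.952). Ltbp4 encodes a binding protein of latent TGF-β, and it fell by 2.65 ± 0.65 (edgeR adjusted p = 0.00809). The effect on Ltbp4 was -4.71 ± 0.51 in experiment 1 (adjusted p = 7.39e-07) and -0.71 ± 0.44 in experiment 3 (adjusted p = 0.43), and the interaction of 4.0 ± 0.65 passed (adjusted p = 0.000672).

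The other 6 subunits had looser neighbours. They were Fcgr2b, Dync1i2 and Ccdc109b for Itgax (0.939, 0.936 and 0.926), St8sia6, Kmt2e and Kit for Itga4 (0.942, 0.927 and 0.915), and Mgea5, Rnf167 and Zkscan17 for Itgav (0.911, 0.909 and 0.887). They were Cstb, Pdia3 and Arl1 for Itgae (0.91, 0.898 and 0.89), Psmc6, Fscn1 and Scyl2 for Itgb1 (0.859, 0.855 and 0.85), and Milr1, Alox5 and Mrps18a for Itgam (0.84, 0.839 and 0.817). Among the subunits themselves the highest correlations were between Itgb7 and Itga5 (r = 0.923), Itgb8 and Itga5 (0.883) and Itgb8 and Itgb7 (0.863), over the same 12 libraries. The lowest was between Itgb5 and Itgb7 (-0.729).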

How the data were processed

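The authors deposited raw read counts per gene symbol for 12 libraries. Polyadenylated RNA was selected and made into directional libraries with 10 PCR cycles, per the labels' protocols. The submitters' processing notes name the aligner STAR 2.5.0c, the counter HTSeq, the trimmers cutadapt 1.9.1 and Trim Galore 0.4.1, DESeq2 and the build mm9. Which annotation and strand setting were used is not given in the sources used here.

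From the counts, edgeR 4.0.16 in R 4.3.3 (filterByExpr, TMM, quasi-likelihood F test, two-sided) was fitted over all 13221 genes that passed. One fit had additive terms for vector and experiment, and another had the 4 groups and gave the effect within each experiment and their difference. Libraries carry no replicate numbers that pair groups. The SE is the effect over the square root of F. CPM use TMM-scaled sizes, and exon lengths come from the M21 annotation. Alternatives were DESeq2 1.42.0, limma 3.58.1 (voom), other size factors, other filters, added terms and leaving out each library. On simulated counts over 13221 genes, the fit over both experiments called 46% of 100 genes changed by 1 and 74% of 100 changed by 2 on the log2 scale, with 8 unchanged genes called. These shares were 36% and 69% for the effect in experiment 1, and only 16% and 54% for the interaction. Across the genes simulated, an interaction that did not pass can therefore still be a real difference of that size. For the subunits whose interaction did not pass, intervals of 2 SE are narrower guides. They did not reach 1 in either direction for Itgam (-0.87 to 0.13), Itgax (-0.89 to -0.17) or Itgb1 (-0.53 to 0.22). Nor did they for Itgb7 (-0.16 to 0.86), Itga4 (0.02 to 0.90) or Itga5 (0.03 to 0.82). They reached 1 for Itgb5 (-1.02 to 0.03) and Itgae (-1.88 to 0.54), and 2 for Itgb8 (0.73 to 3.16). At these depths 3 counts are 0.181 to 0.31 CPM.

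The 10 subunits, the gene lists and the rules were chosen with earlier results of these data known. The naming rule took all 10 subunits, allowed any tested subunit on the list of other integrins, and took up to 4 genes per further list by adjusted p and 3 genes per subunit by likeness. A gene that this rule names is not reported here. Of 13 marker lists, those that touch a result are given, with single markers chosen after their values were seen. The plot of latent TGF-β shows its list whatever the result.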

Additional observations from a re-analysis of the deposited data

Results flagged for a closer look

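The effect of AdTGFb1 on Itgav differed between the experiments: it was -0.65 ± 0.15 in experiment 1 and 0.24 ± 0.15 in experiment 3, and the test of the difference (0.89 ± 0.21, edgeR adjusted p = 0.0103) passed. The AdCL libraries lay at 232 to 242 CPM in experiment 1 and at 149 to 202 CPM in experiment 3. With a term for Xist the difference was 0.84 (adjusted p = 0.0774), and a term for the markers of endothelial, epithelial, mesenchymal cells and platelets gave 1.11 (adjusted p = 0.431).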

How the results depend on the processing

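Of the 10 subunits, edgeR called 5 over both experiments, 7 in experiment 1, 3 in experiment 3, 1 for the interaction and 2 between the experiments. Itgb5, Itgb7 and Itga5 kept their calls over both experiments and in experiment 3 under every alternative run. Over both experiments Itgb5 lay between 1.21 and 1.50 (largest adjusted p 0.0108), Itgb7 between -1.21 and -0.99 (0.00026) and Itga5 between -1.06 and -0.80 (0.000139). With the term for markers of other cells the counts were 3 over both experiments, 0 in experiment 1 and 0 for the interaction. The interaction count was 3 with DESeq2, 2 with limma-voom, 0 with the term for Xist, and 1 to 2 when each library was left out in turn (2 without AdCL DC 9, by Itgb5).

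Only effects that were not called turned sign. In experiment 1 Itgb1 was -0.00425 with RLE size factors, -0.00445 with DESeq2 and -0.0521 with the term for Xist. With that term the interaction of Itgam was 0.00683, and experiment 3 against 1 was -0.21 for Itgam, -0.23 for Itgax, 0.44 for Itgb8 and 0.32 for Itgb7, while Itga4 was called there (0.65, adjusted p = 0.0299). With the term for markers of other cells, Itgae was -0.11 and Itgav 0.0564 over both experiments, Itgam was 0.89 in experiment 1, Itga5 was -0.11 for the interaction, and experiment 3 against 1 was -0.00287 for Itgax and 0.10 for Itgb8. When each library was left out, Itgae lay between -0.22 and 0.27 over both experiments and -1.13 and 0.0559 in experiment 3. Itgam lay between -0.21 and 0.14 and Itgb1 between -0.00848 and 0.0917 in experiment 1. Between the experiments Itgax lay between -0.0271 and 0.10, Itgb8 between -0.28 and 0.11 and Itgav between -0.0648 and 0.13. The cause was not tested. Groups of 3 libraries limit the precision, most of all for Itgb8 and Itgae with their few reads. No paired analysis was possible because the groups share no replicate numbers.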
